A study of Mus musculus with 8 samples.

Results

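Genes whose RNA level followed that of Mbnl1 in order through 4 mouse embryonic stem cell lines are described here: 776 of the 18054 other genes tested. Mbnl1 encodes Muscleblind-like 1, an RNA-binding protein. The series sets the RNA-binding repressor TRIM71 beside alternative splicing and Mbnl1. All 8 libraries came from 129xC57BL/6 embryonic stem cells with the Rosa26Cre-ERT2/BirA-V5 genotype, which every line carried, grown in serum with LIF on gelatin. In order of rising Mbnl1 level the lines were the parental cells (wild type), cells homozygous for a mutated Mbnl1 3'UTR (the 3'UTR mutant, written Mbnl1 3'UTR(mut)/3'UTR(mut)), TRIM71-/- cells (the knockout) and cells stably transfected with MBNL1::T2A::Puromycin (overexpression). Each line had 2 libraries of total RNA. The labels do not say whether these were separate cultures or clones, nor which promoter drove the transgene. The errors of log2 changes against wild type below therefore measure only the spread between these libraries.

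Muscleblind-like proteins bind short RNA stretches made of a pyrimidine, GC and another pyrimidine. They steer the choice of alternative exons and 3' ends in the nucleus, and in the cytoplasm they affect the placing and decay of mRNAs. Embryonic stem cells hold little of them compared with muscle, brain and other differentiated tissue. TRIM71, the mammalian relative of worm LIN-41, is abundant in embryonic stem cells and represses mRNAs to which it binds.

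Mbnl1, on chromosome 3, had 25.9 and 26.1 CPM in wild type, 28.6 and 27.4 CPM in the 3'UTR mutant, 48.8 and 50.9 CPM in the knockout and 193 and 195 CPM in overexpression. These are CPM values, read counts scaled to library size with TMM factors. The lines did not overlap, but the mutant lay close to wild type: the log2 change against wild type was 0.11 ± 0.04 (SE) in the mutant, 0.94 ± 0.04 in the knockout and 2.90 ± 0.04 in overexpression. The mutant change of Mbnl1 did not reach an adjusted p under 0.05 (0.0860, edgeR quasi-likelihood test with 1 mean per line). Counts per gene do not tell the transfected copy from the resident one. Trim71, the gene targeted in the knockout, had 629.9 and 628 CPM in wild type, 695 and 694 CPM in the 3'UTR mutant, 101 and 105 CPM in the knockout and 644 and 667 CPM in overexpression. It did not follow Mbnl1, with a slope of 0.01 ± 0.25.

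Total counts ranged from 75056306 to 86508533 per library, so that 3 counts correspond to 0.0347 to 0.04 CPM, and depth was not in the order of Mbnl1. Markers of embryonic stem cells (Pou5f1, Sox2, Nanog, Zfp42, Dppa5a) summed to 2943 to 3742 CPM, and those of fibroblasts to 4.92 to 9.34 CPM. None of 30 marker genes and none of 6 marker sums was in the order of Mbnl1. The primitive endoderm sum was 26.0 and 30.6 CPM in wild type, 38.4 and 45.2 CPM in the mutant, 4.24 and 3.95 CPM in the knockout and 18.1 and 15.1 CPM in overexpression. In bulk RNA, fewer cells of a type and less RNA per cell cannot be told apart.

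The members were chosen from these same values. For each gene the log2 level was regressed on the log2 CPM of Mbnl1 over the 8 libraries. The slope is thus the log2 change of the gene per doubling of Mbnl1. The error of a slope holds both the spread between libraries and the departure of the 4 lines from a straight trend. A trend call needed an adjusted p under 0.05 by edgeR's quasi-likelihood test with Benjamini-Hochberg adjustment over all tested genes. A member also needed both libraries of each line above (rising) or below (falling) both libraries of the line before it. Slopes, steps and their errors below therefore describe the members and test nothing. Because Mbnl1 took only 4 levels, 1 per line, its level and any other difference between the lines cannot be told apart.

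The trend alone called 2742 genes rising (15.2% of those tested) and 2289 falling (12.7%). With scaling to library size only the split was 3366 rising and 1673 falling. Without overexpression replicate 1 these counts dropped to 1219 and 752, and without overexpression replicate 2 to 1346 and 944. Of the rising and falling trend calls, 2597 and 2111 held the overexpression step without overlap. The knockout step was held by 1477 and 1263, and the mutant step by 1056 and 944. Overexpression lay furthest out in Mbnl1 level and weighed most on the slope, so a trend call favours genes with that step. The ranking of the steps follows from this choice and is no result. The full order was kept by 452 rising genes (2.5%) and 324 falling genes (1.79%). The order with no call asked was kept by 473 (2.62%) and 339 (1.88%). With the counts of a line summed, leaving 4 points and 2 residual degrees of freedom, no gene was called by edgeR or by limma, and the lowest adjusted p was 0.144 by edgeR. At an unadjusted p under 0.05, edgeR then gave 1822 rising and 1285 falling genes, limma 1775 and 1329, and 618 of the 768 members still tested were among the edgeR genes.

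Outside distal chromosome 2, 387 genes rose in order (2.27% of 17083) and 323 fell (1.89%); without mutant replicate 1, 541 fell. On distal chromosome 2, from 71719417 (mm10) on, 65 rose (6.69% of 971) and 1 fell (0.103%), and these are kept apart below. Most members moved little. The median log2 change against wild type of the 387 rising genes was 0.18 in the mutant, 0.45 in the knockout and 0.77 in overexpression. For the 323 falling genes the medians were -0.14, -0.36 and -0.65. At least 2-fold differences between overexpression and wild type were seen in 139 rising and 102 falling genes, and at least 4-fold ones in 23 and 39. The mean level was under 1 CPM for 32 rising and 40 falling genes.

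**Figure D1:**
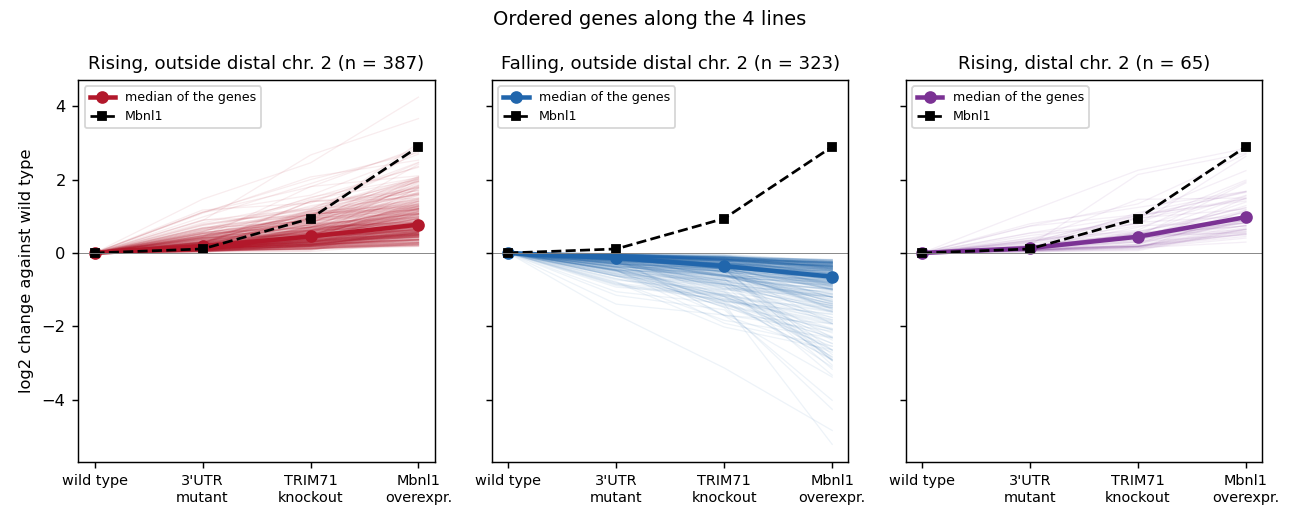
Log2 change against wild type (vertical axis) of each ordered gene (thin lines), their median (thick line) and Mbnl1 (dashed) through the 4 lines. Mbnl1 stood 0.11, 0.94 and 2.90 above wild type in the mutant, the knockout and overexpression, and the median rising gene outside distal chromosome 2 stood 0.18, 0.45 and 0.77 above it.

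Among rising members outside distal chromosome 2 that averaged at least 1 on the log2 CPM scale and had a gene name of their own, the steepest was B3gnt3, a glycosyltransferase that extends sugar chains with N-acetylglucosamine. B3gnt3 had 1.98 and 2.03 CPM in wild type, 3.7 and 3.67 CPM in the 3'UTR mutant, 12.6 and 12.9 CPM in the knockout and 26 and 24.8 CPM in overexpression. It rose at each step, with its largest step on the log2 scale between mutant and knockout, and its slope was 1.09 ± 0.18 (SE). Ucp2, a carrier of the inner mitochondrial membrane, had 10.9 and 10.8 CPM in wild type, 11.9 and 13.1 CPM in the 3'UTR mutant, 27.7 and 29.6 CPM in the knockout and 58 and 53.4 CPM in overexpression. The mutant lay just above wild type, with larger steps to the knockout and to overexpression, and the slope was 0.78 ± 0.08.

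Kdelr3, a receptor that returns chaperones to the endoplasmic reticulum, had 13.7 and 14.7 CPM in wild type, 17.9 and 20.1 CPM in the 3'UTR mutant, 22.7 and 23.4 CPM in the knockout and 51.3 and 51.5 CPM in overexpression. Hcn2, a cation channel opened by hyperpolarisation, had 3.83 and 3.81 CPM in wild type, 4.69 and 4.32 CPM in the 3'UTR mutant, 5.23 and 5.83 CPM in the knockout and 13.6 and 12.1 CPM in overexpression, and overexpression made the largest step. Ltbp3, which binds latent TGF-beta in the matrix, had 1.91 and 2.16 CPM in wild type, 2.22 and 2.24 CPM in the 3'UTR mutant, 2.64 and 2.38 CPM in the knockout and 7.17 and 6.8 CPM in overexpression. For Ltbp3 only 0.169 of the overexpression change was present in the knockout. The calls of Ltbp3 and Catsperz were lost without the overexpression line (adjusted p = 0.153 and 0.111, edgeR). Slopes of other steep rising genes were 0.66 for Fam81a, 0.66 for Islr2, 0.65 for Paqr4, 0.64 for Catsperz, 0.64 for Arhgap45, 0.62 for the glutathione-cleaving Ggt1, 0.59 for the intermediate filament gene Prph, 0.59 for the Golgi GTPase Rab6b and 0.58 for the potassium channel subunit Kcnab3. Islr2 shares exon sequence on 1 strand with Islr, and Catsperz with Kcnk4, so their reads may be split. The trend call of Arhgap45 was lost without overexpression replicate 1 (adjusted p = 0.0521, edgeR), and that of Islr2 without either overexpression library (0.0521 to 0.0577).

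Of the steepest falling members outside distal chromosome 2, Sfmbt2, a polycomb group protein, had 62.6 and 56.8 CPM in wild type, 38.3 and 38.5 CPM in the 3'UTR mutant, 28.7 and 28.2 CPM in the knockout and 7.96 and 8.82 CPM in overexpression. Each line lay clear of the next, and the slope was -0.90 ± 0.07. Zic2, a zinc finger transcription factor, had 4.65 and 5.45 CPM in wild type, 2.87 and 3.18 CPM in the 3'UTR mutant, 2.63 and 2.37 CPM in the knockout and 0.725 and 0.679 CPM in overexpression, with mutant and knockout close together. Vgll3, a cofactor of TEAD transcription factors, had 5.3 and 5.17 CPM in wild type, 3.6 and 3.88 CPM in the 3'UTR mutant, 2.04 and 1.71 CPM in the knockout and 0.937 and 1.2 CPM in overexpression. In Vgll3 the knockout already held most of the change, a share of 0.647. Runx1t1, a transcriptional corepressor, fell with a slope of -0.70 ± 0.09, Aff3 with -0.65 ± 0.07, and Ripply1, which acts in somite formation, with -0.63 ± 0.06.

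Lpar4, a receptor for lysophosphatidic acid, had 13.9 and 15.3 CPM in wild type, 9.94 and 8.09 CPM in the 3'UTR mutant, 5.84 and 5.72 CPM in the knockout and 2.01 and 1.9 CPM in overexpression. Gap43, a protein of growing axons, had 14.7 and 16.2 CPM in wild type, 13.8 and 12 CPM in the 3'UTR mutant, 7.41 and 7.49 CPM in the knockout and 2.44 and 2.45 CPM in overexpression. Its 2 mutant libraries were below both wild-type libraries, and overexpression was lowest by a wide margin. Cdh2, N-cadherin, had 6.65 and 6.25 CPM in wild type, 5.91 and 5.9 CPM in the 3'UTR mutant, 3.01 and 2.71 CPM in the knockout and 1.1 and 1.22 CPM in overexpression. Cngb1, a subunit of cyclic nucleotide-gated channels, had 3.59 and 3.63 CPM in wild type, 2.93 and 2.98 CPM in the 3'UTR mutant, 2.38 and 2.05 CPM in the knockout and 0.703 and 0.748 CPM in overexpression. Ccn2, a matricellular protein induced by TGF-beta and YAP, had 67.6 and 63.2 CPM in wild type, 51.7 and 53.6 CPM in the 3'UTR mutant, 26.7 and 26.2 CPM in the knockout and 16.4 and 17.4 CPM in overexpression. For Ccn2 the knockout step was the largest. Mup6 had a slope of -0.65 ± 0.13, but it belongs to a family of near-identical genes, its reads may come from other copies, and its call was lost without overexpression replicate 1 (adjusted p = 0.0555, edgeR).

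**Figure D2:**
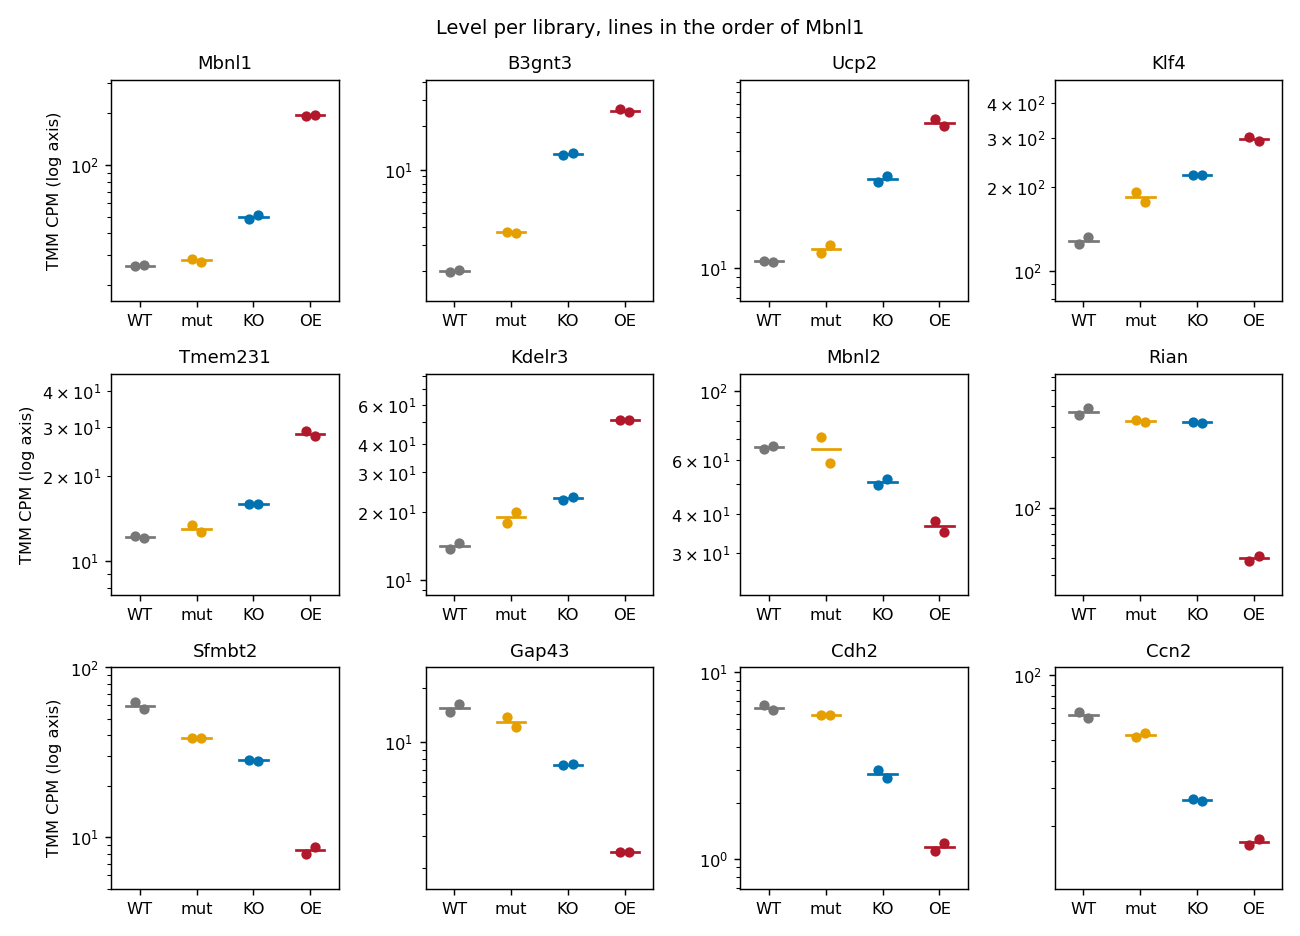
TMM-normalised CPM per library (points, log axis) and line mean (bars) of 12 genes, with lines in the order of Mbnl1: wild type (WT), 3'UTR mutant (mut), TRIM71 knockout (KO) and overexpression (OE). Lines do not overlap in any panel but that of Mbnl2, where mutant libraries at 70.9 and 58.4 CPM lie on both sides of wild type.

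Rian and Mirg, noncoding RNAs transcribed from the maternal copy of the imprinted Dlk1 to Dio3 region, were the steepest falling genes that passed the level filter for naming. Rian had 354 and 392 CPM in wild type, 333 and 323 CPM in the 3'UTR mutant, 323 and 319 CPM in the knockout and 48.5 and 51.8 CPM in overexpression, so that mutant and knockout hardly parted and nearly the whole change lay in overexpression. Mirg had 63.9 and 74.8 CPM in wild type, 56.5 and 59.4 CPM in the 3'UTR mutant, 51.3 and 53.9 CPM in the knockout and 8.77 and 9.37 CPM in overexpression. Between Dlk1 and Dio3 (chr12:109452823-110281097, mm10) all 63 tested genes had a negative slope, with a median of -0.94. Of these, 60 were falling trend calls and 8 kept the full order. Without the overexpression line, Rian had a slope of -0.15 (adjusted p = 0.160, edgeR) and Mirg of -0.33 (adjusted p = 0.0590). Of Sfmbt2 and the loci within its span (chr2:10370510-10595253), 40 of 40 tested had a negative slope, 32 were falling trend calls and 3 kept the order. Loci within Sfmbt2, and those that share exon sequence with Rian or Mirg, may hold reads of the longer transcript. The counts of both regions are therefore not counts of independent genes. Only 9 genes of the first region and 1 of the second averaged at least 1 CPM.

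Of 189 tested precursor loci of microRNAs 5 were members (2.65%), near the 1.79% of all tested genes that fell in order, and nothing is read from that count. The 5, all falling, were Mir3070a and Mir3070b of the chromosome 12 region, Mir669h and Mir466o within Sfmbt2, and Mir18b on the X chromosome. MicroRNAs pair with target mRNAs through a seed, bases 2 to 8. The mature sequences of 3 of the 5 are in RefSeq (GRCm38.p6) and are shown because they place the members in seed groups, with the seed in capitals and each written 5′ to 3′.
mmu-miR-3070-5p, from both Mir3070 loci: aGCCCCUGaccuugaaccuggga
mmu-miR-3070-3p, from Mir3070a: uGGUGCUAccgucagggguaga
mmu-miR-3070-2-3p, from Mir3070b: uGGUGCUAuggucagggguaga
mmu-miR-18b-5p, from Mir18b: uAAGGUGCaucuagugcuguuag
mmu-miR-18b-3p, from Mir18b: uACUGCCCuaaaugccccuucu
The products of both Mir3070 loci share their seeds on either arm, and those of Mir18b have others.

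Mir3070a (chr12:109587959-109587981, plus strand, for the 5p product) had 1.76 and 2.04 CPM in wild type, 1.26 and 1.31 CPM in the 3'UTR mutant, 1.14 and 0.923 CPM in the knockout and 0.145 and 0.23 CPM in overexpression. Mir18b (chrX:52742381-52742403, minus strand, 5p) had 1.3 and 1.59 CPM in wild type, 0.87 and 0.994 CPM in the 3'UTR mutant, 0.827 and 0.789 CPM in the knockout and 0.457 and 0.495 CPM in overexpression. Kis2, a noncoding RNA gene next to Mir18b on the same strand and also a member, had 9.65 and 11.3 CPM in wild type, 7.02 and 7.33 CPM in the 3'UTR mutant, 5.98 and 5.69 CPM in the knockout and 4.15 and 3.9 CPM in overexpression, and was named after its values were seen. Reads at these loci come from total RNA, a library type not made for mature microRNAs, so the values are not levels of the mature products. Mir669h and Mir466o stayed at or below 0.358 CPM in every library.

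The genes most like Mbnl1 were taken as those with the highest squared correlation of log2 CPM with that of Mbnl1 over the 8 libraries, among members with a slope of at least 0.2 in size. Tmem231, a protein of the ciliary transition zone, had 12.3 and 12.1 CPM in wild type, 13.4 and 12.7 CPM in the 3'UTR mutant, 16 and 16 CPM in the knockout and 28.9 and 27.7 CPM in overexpression. Its squared correlation was 0.996 and 0.32 of its overexpression change was present in the knockout, against 0.324 for Mbnl1. Nrm, a protein of the inner nuclear membrane, had 7.56 and 7.39 CPM in wild type, 8.46 and 8.66 CPM in the 3'UTR mutant, 10.2 and 10.6 CPM in the knockout and 21.4 and 20.0 CPM in overexpression. Sun2, which links the nuclear envelope to the cytoskeleton, had 14 and 14.6 CPM in wild type, 14.9 and 15.6 CPM in the 3'UTR mutant, 19.6 and 20.6 CPM in the knockout and 31.3 and 32.8 CPM in overexpression. Bcorl1, Arhgap27, Obsl1, Pitpnm1 and Hcn2 completed the rising set, with squared correlations of 0.981 to 0.990.

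Among falling genes Hmox1, the haem-degrading enzyme haem oxygenase 1, came first. Hmox1 had 118 and 111 CPM in wild type, 108 and 111 CPM in the 3'UTR mutant, 98.1 and 97.5 CPM in the knockout and 62.9 and 62.9 CPM in overexpression. Its squared correlation was 0.990, and its lowest wild-type library was at the level of the higher mutant library to 3 digits, so the mutant step was held by a small margin. Col18a1, a collagen of basement membranes, had 689 and 658 CPM in wild type, 633 and 629 CPM in the 3'UTR mutant, 518 and 521 CPM in the knockout and 346 and 358 CPM in overexpression. Pdzd4 had 168 and 172 CPM in wild type, 154 and 154 CPM in the 3'UTR mutant, 115 and 117 CPM in the knockout and 70.0 and 68.2 CPM in overexpression, with each line clear of the next. Gap43, Cngb1, Zfp819, Sh3bgrl and Spata13 had squared correlations of 0.985 to 0.988. Since 4 levels of Mbnl1 give the 8 points, these correlations are descriptions. Squared correlations above 0.95 were reached by 56 of the 387 rising and 65 of the 323 falling genes.

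**Figure D3:**
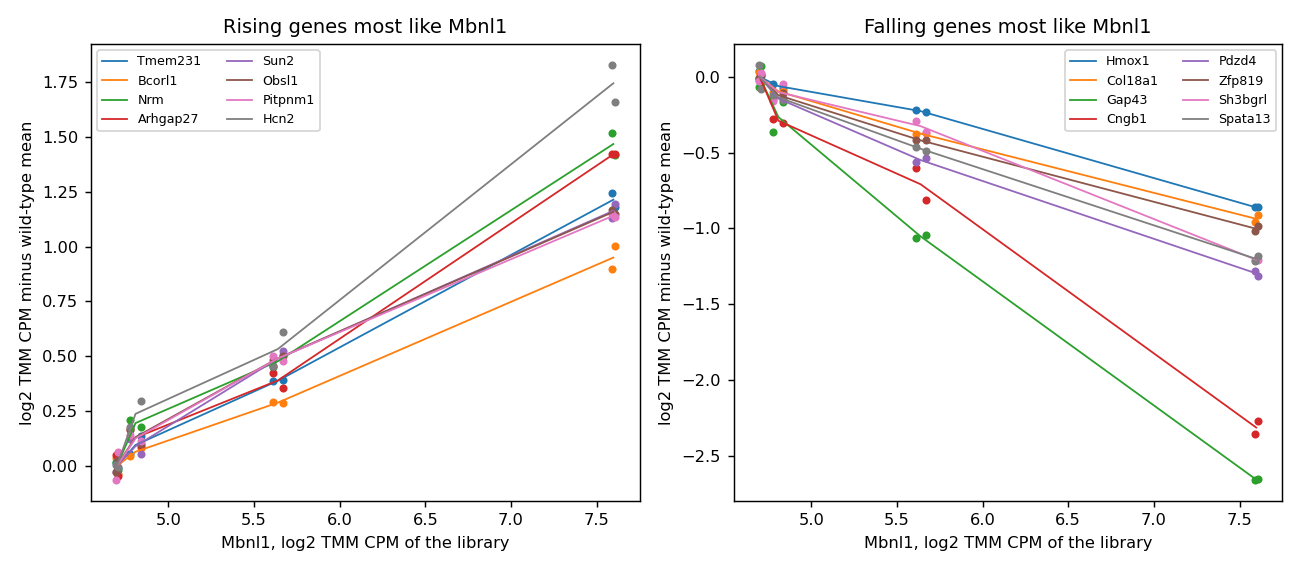
Log2 TMM CPM of the 8 rising and 8 falling genes most like Mbnl1, less the wild-type mean (vertical axis), against log2 CPM of Mbnl1 in the same library (horizontal axis). Points are libraries and lines join line means; wild-type and mutant points lie within 0.2 of each other on the Mbnl1 axis.

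The proportions of the steps of the members were set beside those of Mbnl1. The change in the knockout, taken as a share of the change in overexpression, was 0.324 for Mbnl1. Its median was 0.58 over the rising and 0.56 over the falling genes outside distal chromosome 2. The share lay above that of Mbnl1 in 358 of 387 rising and 285 of 323 falling genes, and above 0.5 in 261 and 198. The mutant held a median share of 0.256 of the overexpression change in rising and 0.230 in falling genes, against 0.0376 for Mbnl1. The rule asks for a clear mutant step and a clear overexpression step beyond the knockout, which bounds both shares. A gene with a mutant step as small in proportion as that of Mbnl1 could seldom pass, so the higher mutant shares follow from the rule. With the mutant line left out, the genes then in order had median knockout shares of 0.438 rising and 0.392 falling, nearer to Mbnl1. The shares of the members are therefore no sign of how genes at large moved. Arhgap45 and Islr2 stood near one end, with knockout shares of 0.86 and 0.819, and Rian at the other with 0.0741.

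**Figure D4:**
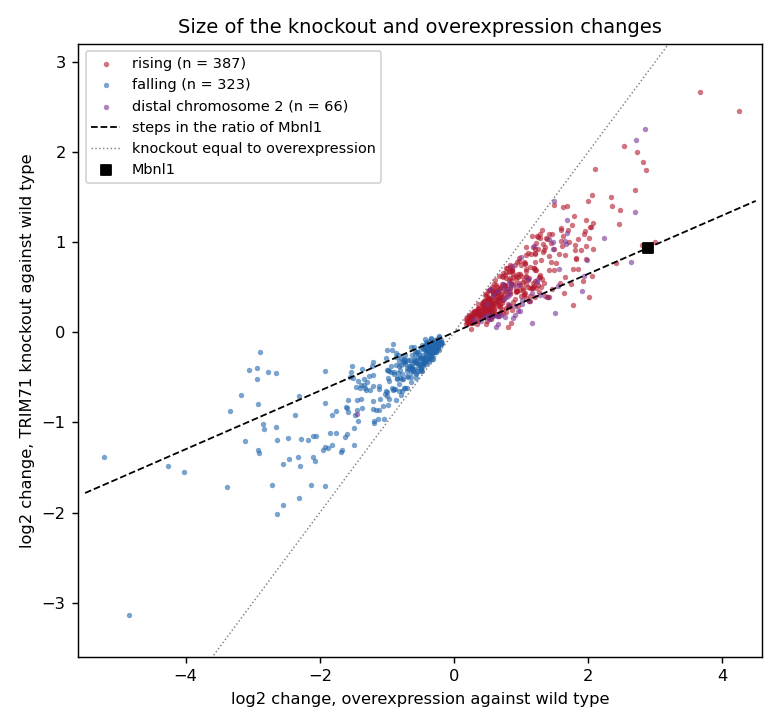
Log2 change against wild type in the TRIM71 knockout (vertical axis) against that in overexpression (horizontal axis) for the 776 ordered genes. Most points lie between the dotted line of equal change and the dashed line with the proportions of Mbnl1, whose knockout share was 0.324.

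Gene lists from general knowledge were read for all members, those of distal chromosome 2 included. Over all tested genes, 15.2% were rising and 12.7% falling trend calls, and the median slope was -0.0044. Rising members made up 2.5% and falling members 1.79% of all tested genes. At these shares a short list can hold no member or a few, so nothing is read from the member count of a list. Among Muscleblind, CELF and RBFOX splicing regulators, Celf5 was the single member of 10 tested. Celf5, of the family that opposes Muscleblind on many exons, had 6.47 and 6.59 CPM in wild type, 7.21 and 7.2 CPM in the 3'UTR mutant, 7.84 and 7.43 CPM in the knockout and 11.2 and 11.3 CPM in overexpression. Its call was lost without the overexpression line (adjusted p = 0.131, edgeR). Mbnl2, the paralogue of Mbnl1, had 65.1 and 66.2 CPM in wild type, 70.9 and 58.4 CPM in the 3'UTR mutant, 49.6 and 52.1 CPM in the knockout and 38.2 and 35.1 CPM in overexpression. It was a falling trend call with a slope of -0.29 ± 0.03, and its mutant libraries lay on both sides of wild type, so it was no member. Mbnl3 had a slope of -0.01 ± 0.04. Celf1 was a rising trend call, and Celf2 and Rbfox2 were falling ones, all out of order. Of 29 other tissue-specific splicing regulators 6 were rising and 4 falling calls, and Ptbp2, a neuronal repressor of exons, was the member, with 51.1 and 56.6 CPM in wild type, 43.6 and 39.2 CPM in the 3'UTR mutant, 39.2 and 39.2 CPM in the knockout and 29.7 and 28.3 CPM in overexpression. Mutant replicate 2 and both knockout libraries were equal to 3 digits, so the knockout step was held by a small margin, and the call of Ptbp2 was lost without the overexpression line (adjusted p = 0.118, edgeR). None of 38 SR protein and hnRNP genes kept the order; 2 were rising and 4 falling calls. Of 10 reported TRIM71 targets other than Mbnl1, Lin28b was a falling call and none kept the order.

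Lists of pluripotency and early lineages were short, with 11 to 22 tested genes each. Klf4, a naive pluripotency factor, had 125 and 132 CPM in wild type, 192 and 177 CPM in the 3'UTR mutant, 220.4 and 221 CPM in the knockout and 301 and 291 CPM in overexpression. It was the single member of 22 naive genes, of which 3 were rising and 2 falling calls. Without the overexpression line the adjusted p of Klf4 was 0.0523 (edgeR). Of 20 formative and primed genes 1 was a rising and 6 were falling calls. The 3 members were Zic2 and Cdh2, given above, and Lef1, a Wnt effector, with 1.13 and 0.782 CPM in wild type, 0.738 and 0.703 CPM in the 3'UTR mutant, 0.349 and 0.425 CPM in the knockout and 0.0669 and 0.184 CPM in overexpression. Of 21 general pluripotency genes 2 were rising and 8 falling calls, and the members were Dppa4 (-0.19) and Gdf3 (-0.16) falling and the distal chromosome 2 gene Mybl2 (0.26) rising. None of 22 primitive endoderm, 15 trophoblast or 11 mesendoderm genes kept the order, with falling calls for 1, 4 and 1 of them and rising calls for 0, 0 and 2. Neural genes gave 3 rising and 6 falling calls of 22, with Gap43, the neurofilament gene Nefm (-0.81) and the microtubule-binding Map2 (-0.47) as members. Nefm was low, with means of 0.92 CPM in wild type and 0.16 CPM in overexpression.

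Of 28 genes of the Nodal, TGF-beta and BMP pathway 5 were rising and 5 falling calls, with Ccn2 falling and Acvr1b, an activin receptor, rising in order. Acvr1b had 32.5 and 34.3 CPM in wild type, 37.4 and 35.8 CPM in the 3'UTR mutant, 46.4 and 45.2 CPM in the knockout and 58 and 56.7 CPM in overexpression. Of 29 Wnt genes 4 were rising and 5 falling calls, with Lef1 as the member. Of 30 FGF and ERK feedback genes 1 was a rising and 10 were falling calls, and none kept the order. Among 32 p53 targets 4 were rising and 6 falling calls; Gdf15 (0.40) rose in order, and Pmaip1 (-0.36) and Ccng1 (-0.15) fell. The call of Ccng1 was lost without any of 5 libraries (both wild-type, both overexpression and mutant replicate 1; adjusted p = 0.0514 to 0.120, edgeR) and that of Pmaip1 without overexpression replicate 2 (0.0507).

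Among 29 glycolysis and hypoxia genes 7 were rising and 9 falling calls, and 3 targets of the hypoxia response rose in order. Vegfa, a growth factor for vessels, had 26.6 and 31.6 CPM in wild type, 38.1 and 35 CPM in the 3'UTR mutant, 46.4 and 48.4 CPM in the knockout and 54.8 and 50.6 CPM in overexpression. Egln1 (0.16), an oxygen-sensing hydroxylase, and Car9 (0.35), a carbonic anhydrase, were the others. Car9 was low, with means of 0.22 CPM in wild type and 0.54 CPM in overexpression. Leaving out overexpression replicate 1 ended the calls of Vegfa (adjusted p = 0.0844, edgeR) and Egln1 (0.0514). The call of Car9 was lost without any of 4 libraries (wild-type replicate 1, mutant replicate 1 and both overexpression libraries, 0.0588 to 0.186). Of 25 cholesterol synthesis genes 2 were rising and 2 falling calls, with Pmvk (0.23) the member. Among 28 ATF4 and unfolded protein response genes 8 were rising and 2 falling calls, and none kept the order.

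Of 60 cytosolic ribosomal protein genes 41 were falling and 0 rising trend calls, with a median slope of -0.08. Under library size alone 22 were falling calls, and the median slope stayed negative under all 4 scalings. Only Rps3a1 and Rpl15 kept the order. Rps3a1 had 917 and 917 CPM in wild type, 892 and 897 CPM in the 3'UTR mutant, 884 and 869 CPM in the knockout and 712 and 728 CPM in overexpression, a small fall that lay mostly in overexpression. The call of Rpl15 was lost without either overexpression library (adjusted p = 0.0528 to 0.156, edgeR). Of 24 mitosis genes 10 were rising and 2 falling calls, and Bub1b, a spindle checkpoint kinase on distal chromosome 2, Cdc25c and Plk1 rose in order. Plk1, a mitotic kinase, had 119 and 118 CPM in wild type, 131 and 127 CPM in the 3'UTR mutant, 132 and 131 CPM in the knockout and 145 and 140.0 CPM in overexpression. The calls of Plk1 and Cdc25c were lost without either overexpression library (0.0642 to 0.117 for Plk1 and 0.0678 to 0.0857 for Cdc25c). Of 23 methylation-sensitive germline genes 9 were rising and 0 falling calls, and Tex15 (0.17) and Taf7l (0.19) kept the order. Taf7l lost its call without any of 5 libraries (both wild-type, both overexpression and mutant replicate 2; 0.0514 to 0.147). Among 37 genes of G1 and S phase 6 were rising and 6 falling calls, with no member.

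Imprinted genes gave 3 rising and 11 falling calls of 34. Members that fell were Rian, Mirg, Dlk1 and Peg10, and Slc22a18 and Mcts2 rose. Dlk1, a paternally expressed membrane protein, had 2.5 and 2.68 CPM in wild type, 1.48 and 1.69 CPM in the 3'UTR mutant, 1.35 and 1.02 CPM in the knockout and 0.602 and 0.829 CPM in overexpression, and its call was lost without overexpression replicate 1 (adjusted p = 0.0570, edgeR). Peg10, derived from a retroelement, had 213 and 174 CPM in wild type, 169.9 and 168 CPM in the 3'UTR mutant, 126 and 120.1 CPM in the knockout and 99.3 and 119 CPM in overexpression. Meg3, beside Rian, had 82.2 and 95.2 CPM in wild type, 82.8 and 76.1 CPM in the 3'UTR mutant, 61.7 and 61.1 CPM in the knockout and 11.3 and 11.7 CPM in overexpression; it was a falling call, but a mutant library lay above a wild-type one. Of 41 basement membrane, integrin and adhesion genes 9 were rising and 6 falling calls, with Itgb3 (0.35) rising and Cdh2 and Epcam (-0.24) falling in order. Epcam, an epithelial adhesion molecule, had 123 and 122 CPM in wild type, 112 and 110.4 CPM in the 3'UTR mutant, 97.9 and 96.6 CPM in the knockout and 72.2 and 74.3 CPM in overexpression. Tagln2 (0.17) was the member among 21 actin and muscle genes, with 4 rising and 0 falling calls. The lists of DNA methyltransferases and TET enzymes, the microRNA pathway, mitochondrially encoded genes, fibroblast markers and 2-cell-like genes held no member, among 9, 19, 10, 16 and 1 tested genes.

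Gene families were counted after their values were seen. Of 16 cadherins named Cdh and a number, 2 were rising and 4 falling calls, and the 4 falling ones, Cdh2, Cdh9, Cdh10 and Cdh17, all kept the order. Cdh9 had 1.95 and 1.83 CPM in wild type, 1.33 and 1.41 CPM in the 3'UTR mutant, 0.419 and 0.583 CPM in the knockout and 0.357 and 0.288 CPM in overexpression, with the knockout close to overexpression. Of 20 genes of the major histocompatibility complex with H2- names, 11 were rising and 0 falling calls, and H2-D1, H2-K1 and H2-Q10 rose in order. H2-D1, a class I chain that presents peptides, had 13.6 and 13.8 CPM in wild type, 14.5 and 14.1 CPM in the 3'UTR mutant, 17.9 and 18.1 CPM in the knockout and 23.9 and 22.9 CPM in overexpression. Close class I genes can share reads, so the split between them is uncertain.

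The median slope of the 971 tested genes of distal chromosome 2 was 0.17, against -0.01 for the 17083 others. The median log2 change against wild type of these 971 genes was 0.00 in the mutant, -0.01 in the knockout and 0.48 in overexpression. The part of this regional difference in the order of its 65 rising members was not tested. Tgm2, a transglutaminase that cross-links proteins, had 15.3 and 16.5 CPM in wild type, 18.9 and 17.7 CPM in the 3'UTR mutant, 70.6 and 69.2 CPM in the knockout and 117 and 92.3 CPM in overexpression. In Tgm2 the knockout step was the largest, unlike the region. Spint1, an inhibitor of membrane serine proteases, had 45.8 and 43.2 CPM in wild type, 56.2 and 57.5 CPM in the 3'UTR mutant, 68.2 and 69 CPM in the knockout and 172 and 171 CPM in overexpression. Nol4l (0.84), Itpka (0.65), an inositol phosphate kinase, Helz2 (0.63) and the riboflavin transporter Slc52a3 (0.60) were the other steepest. The median knockout share of the 65 genes was 0.44, and 40 of them lay above the 0.324 of Mbnl1. Slc27a2, a fatty acid transporter and the single falling member there, had 29.4 and 27.4 CPM in wild type, 27.1 and 26.2 CPM in the 3'UTR mutant, 15.1 and 15.2 CPM in the knockout and 9.66 and 11.2 CPM in overexpression.

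The median GC content of the longest transcript was 54.9% for rising and 46.5% for falling genes outside distal chromosome 2, against 49.9% for all tested genes there. Genes averaging at least 1 on the log2 CPM scale outside distal chromosome 2 were put into 5 equal bins by GC content. From 30.8 to 43.8% up to 55.6 to 73.7% GC, the rising members numbered 21, 35, 46, 86 and 142 and the falling ones 80, 78, 58, 38 and 16. The libraries moved with GC content too. In overexpression the median log2 change against wild type ran from -0.11 in the lowest bin to 0.14 in the highest, in the knockout from -0.04 to 0.08, and in the mutant from 0.00 to 0.03. After removal of the GC trend from each library, an alternative chosen after seeing the data, 590 of the 776 members (76.0%) were found again, among them 274 of 387 rising and 259 of 323 falling genes. The counts outside distal chromosome 2 were then 317 rising and 379 falling.

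**Figure D5:**
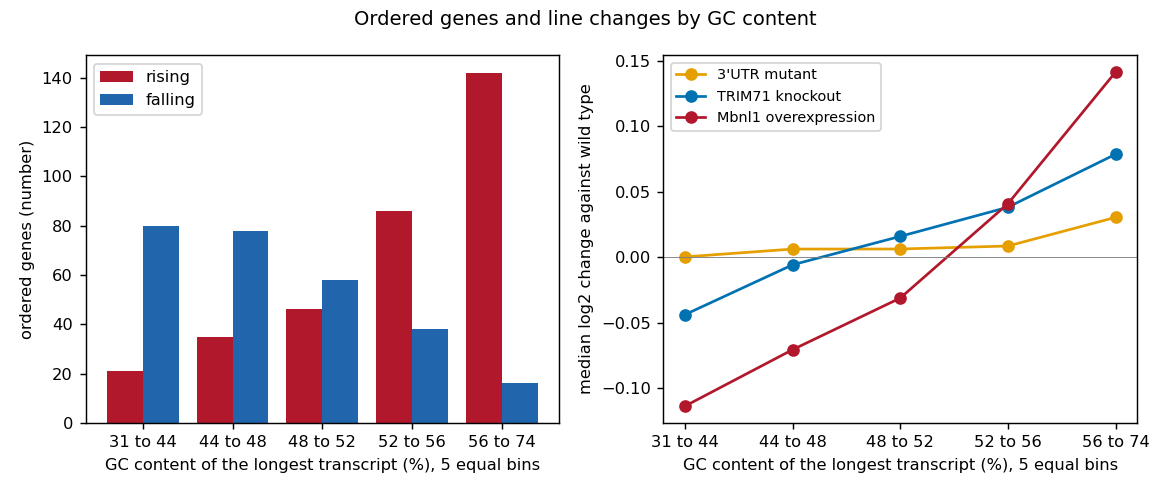
Left, number of ordered genes outside distal chromosome 2 averaging at least 1 on the log2 CPM scale (bars, rising and falling) by GC content of the longest transcript, in 5 equal bins; right, median log2 change against wild type of all genes in each bin (2175 or 2176), by line. Rising members number 21 in the lowest and 142 in the highest bin, and falling members 80 and 16.

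The motifs CGCU and UGCU, to which Muscleblind proteins can bind, were counted on the sense strand of annotated 3'UTRs of at least 100 nt. Overlapping motifs were each counted. At least 1 was found in 92.4% of 369 rising and 95.7% of 279 falling members outside distal chromosome 2, and in 94.4% of 14138 tested genes. The median density was 7.09 per kb in rising and 6.33 per kb in falling members, against 6.91 per kb for all tested genes outside distal chromosome 2. Median 3'UTR length was 901 nt in rising and 1174 nt in falling members, against 1009 nt. GC content of the 3'UTR had medians of 49.7% and 40.4%, against 45.1%, and the motif itself is rich in G and C, so density and composition cannot be read apart. Protein-coding genes made up 442 of the 452 rising (97.8%) and 285 of the 324 falling members (88.0%), against 14618 of the 18054 tested genes (81.0%). Long noncoding genes gave 10 rising (0.781%) and 20 falling members (1.56%) of 1281 tested.

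With distal chromosome 2 included, members within 100000 bases of each other formed 25 runs of at least 3. Of these, 17 held rising members only, 3 falling members only and 5 both. Rising members were more numerous, 452 against 324, and whether members lay closer together than other tested genes was not tested. Among the rising runs was that of Ndufa4l2, Nxph4, Lrp1, Nab2 and Nemp1 (chr10:127514967-127701049, mm10). Lrp1, an endocytic receptor, had 31 and 31.7 CPM in wild type, 36.5 and 36.2 CPM in the 3'UTR mutant, 38.4 and 37.4 CPM in the knockout and 53.3 and 53.7 CPM in overexpression. The 7 members in a row from Mir3070a to Mirg (chr12:109587943-109749460) all fell. By chromosome, with distal chromosome 2 left out, the share of tested genes that rose ran from 0.460% on chromosome 12 to 3.71% on chromosome 17, and the share that fell from 1.18% on chromosome 8 to 4.02% on chromosome 16, among chromosomes 1 to 19 and X.

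Just inside the threshold for a trend call, with the order kept, were Amdhd2 (0.08), Washc3 (0.08) and 9330104G04Rik (0.29) rising, and Cftr (-0.59), 4930507D05Rik (-0.20) and Arid2 (-0.09) falling. Just outside it were Mpi (0.06), Lias (0.05) and Dhtkd1 (0.08) rising, and Adrb3 (-0.16), Rdh5 (-0.19) and 1600002K03Rik (-0.12) falling. Cftr, 9330104G04Rik, 4930507D05Rik and Rdh5 averaged under 1 CPM in every line. All 6 on the inside lost their call without at least 6 of the 8 libraries, each left out in turn. Without the overexpression line calls were also lost for Itgb3, Itpka, Map2, Slc22a18, Tagln2, Rps3a1, Rpl15, Plk1, Cdc25c, Car9 and Taf7l (adjusted p = 0.0601 for Map2 to 0.349 for Rps3a1, edgeR). Over all 776 members, 486 were found again whichever library was left out, 128 in 7 of 8 cases and 162 in 6 or fewer.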

How the data were processed

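Stranded total RNA (TruSeq, 75 nt paired-end reads) was sequenced from 2 libraries of each of 4 lines, grouped by the sample labels. The authors used STAR 2.5.0 and mm10, per the submitters' processing notes. They deposited unnormalized read counts, 1 per library for each of 43346 genes. Which annotation release and strand setting made them is not given in the sources used here. Symbols and positions came from GENCODE M21 (GRCm38) for 42462 genes.

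Counts were analysed in R 4.3.3 with edgeR 4.0.16: filterByExpr (minimum count 10, minimum total 15) kept 18055 of 27979 genes with a count. TMM scaling and a robust quasi-likelihood fit of the slope on log2 CPM of Mbnl1 used all 8 libraries (6 residual degrees of freedom). A second fit with 1 mean per line (4 residual degrees of freedom, biological coefficient of variation 4.17%) gave log2 changes against wild type. Total counts of 75056306 to 86508533 set the precision, and 3 counts are 0.0347 to 0.04 CPM. Correlations between libraries were 0.995 to 0.997 within lines and 0.977 to 0.993 between lines. DESeq2 1.42.0, limma 3.58.1, other scalings, filters, covariates and order rules, and fits without each library or line were alternatives, and the slope script was tested on simulated data. Members and lists were chosen with earlier results of these data known. Named genes were Mbnl1 to Mbnl3 and Trim71. They were also the 15 steepest members per direction that averaged at least 1 on the log2 CPM scale and had a name of their own (6 on distal chromosome 2) and the 8 most like Mbnl1. Up to 4 members per list and 3 genes on either side of the threshold were added, 95 in all. A few of these are not reported here.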

Additional observations from a re-analysis of the deposited data

How the results depend on the processing

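The slopes of all 85 named members kept their sign under every alternative that was run. Their calls were lost for 19 when some 1 library was left out, for 22 without the overexpression line, 12 with linear CPM of Mbnl1, 10 without the mutant line, 9 with the replicate block, 7 after GC adjustment, 7 with no filter on low counts, 5 under library size only, 3 with TMM factors made without distal chromosome 2, 2 each with median-ratio scaling, DESeq2 and limma, 1 with the rank of the line and all 85 with 1 summed library per line. None was lost without the knockout line or, for the 79 tested, with a mean of at least 1 CPM. The setting with 1 summed library per line left 0 trend calls and 0 ordered genes in each direction, inside and outside distal chromosome 2. Ordered genes outside distal chromosome 2, rising then falling, numbered 940 and 883 by line means only, 960 and 964 with wild type and mutant not ordered, 913 and 807 without the overexpression line, 1383 and 1459 without the knockout line and 1237 and 1386 without the mutant line. On distal chromosome 2 the counts were 159 and 3 by line means only and 181 and 2 with wild type and mutant not ordered. There they were 59 and 47 without the overexpression line, 203 and 19 without the knockout line and 244 and 10 without the mutant line. Trend calls without the knockout line were 4309 rising and 3733 falling. Median knockout shares, rising then falling, were 0.525 and 0.490 by line means, 0.544 and 0.499 with wild type and mutant not ordered, 0.556 and 0.539 with linear CPM of Mbnl1 and 0.438 and 0.392 without the mutant line. The falling share was 0.599 under library size only, 0.571 with a mean of at least 1 CPM and 0.571 after GC adjustment; the cause was not tested. Leaving out each library in turn gave 266 to 574 rising and 218 to 541 falling ordered genes outside distal chromosome 2, the 541 without mutant replicate 1. It gave 62 to 96 and 1 to 3 on distal chromosome 2, 1219 to 2928 and 752 to 2437 trend calls, and shares of 0.522 to 0.590 and 0.504 to 0.567. Replicate numbers did not pair libraries (correlations of -0.034 to 0.060). With the replicate number as a block, 732 genes were ordered, all among the 776. DESeq2 kept 773 of the 776, limma 774, median-ratio scaling 733 and library size only 641. Depth limits members below about 1 CPM.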
